A study of Mus musculus with 2 samples.

Results

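The sarcomeric myosin heavy chains are represented here by 7 mouse genes, Myh1, Myh2, Myh3, Myh4, Myh6, Myh7 and Myh8, out of 18193 genes that had a probe set of their own on the array. Every probe set whose symbol in the platform annotation is one of these genes was taken, which gave 13 of 45101 probe sets. Each probe set pools several short probes aimed at a single stretch of a transcript. Of the 13, 11 list 1 gene, and 2 list Myh7 and Myh6 together and carry the _s_at suffix that Affymetrix gives to probes shared by transcripts. A further one, for Myh1, carries the _x_at suffix, which marks probes that may bind other sequences. The bright Myh1 probe set with the _a_at suffix is assigned to 1 gene.

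The RNA came from C2C12, a line of mouse myoblasts that fuses into multinucleated myotubes when serum is lowered. Both cultures were grown in DMEM with 10% fetal bovine serum and kept for 5 days in DMEM with 2% horse serum. One array was made from cells with the hairpin shLrrfip1a, directed against Lrrfip1, and 1 from control cells with the hairpin that the sample labels spell shLCUI. The labels do not say how the hairpins were delivered or whether the cells were a clone or a pool. Since each group has 1 array, nothing here can be checked against replicates, and tests, p-values and standard errors are not given.

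A sarcomeric myosin heavy chain holds the motor head that pulls on actin and the long tail that packs into the thick filament, and 1 set of genes supplies a different motor at each stage and in each fibre type. Developing muscle and cultured myotubes use an embryonic and a perinatal chain, which give way to the fast chains IIa, IIx and IIb or to the slow chain in adult fibres. The alpha chain belongs mainly to heart muscle. C2C12 myotubes are known to express several of these chains at the same time.

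Lrrfip1, which encodes a nucleic acid-binding protein, read lower on all 3 of its probe sets in the shLrrfip1a array, at 62.2% to 70.6% of the control intensity. Over the probe sets that are not Affymetrix controls, the median intensity was 53.5 in shLrrfip1a and 51.3 in the control. A probe set was counted as above the level filter when its mean over both arrays exceeded the median of all such means, 52.7. Differences are log2(intensity + 16), shLrrfip1a minus control, which understates the change of dim probe sets.

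Of the 13 myosin probe sets, 5 lay above the level filter and 8 below it. The 5 were those for Myh3, Myh7, the brighter Myh7 and Myh6 probe set and both bright Myh1 probe sets, and each of them exceeded the array median on both arrays. At least 2-fold apart were 2 of the 5, both for Myh1 and both higher in shLrrfip1a, where 1.21% of all 22518 probe sets above the filter were 2-fold apart and 0.622% were 2-fold higher. The other 11 myosin probe sets, bright and dim, had log2 differences under 0.5 in size, as did 92.9% of all probe sets above the filter and 97.8% of those below it. In RNA of a whole culture, a different number of myotubes and a different amount of RNA per myotube cannot be told apart.

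**Figure D1:**
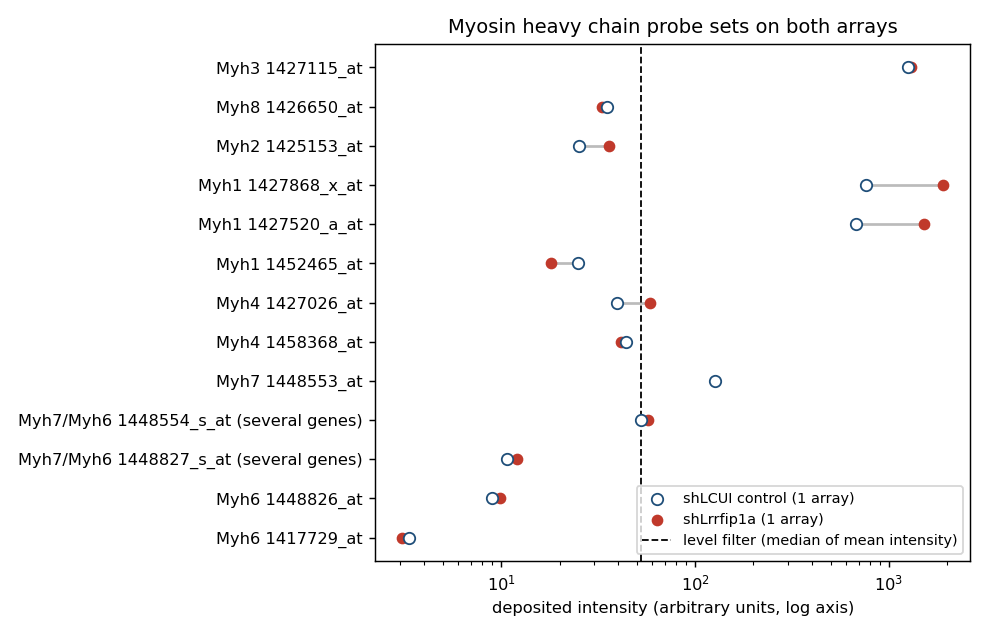
Deposited intensity (log axis, arbitrary units) of the 13 myosin heavy chain probe sets, with an open circle for the control array and a filled one for the shLrrfip1a array. Both bright Myh1 probe sets lie clearly to the right in shLrrfip1a (1908 and 1517 against 765 and 678), the Myh3 circles overlap, and 8 probe sets have a mean below the dashed level filter of 52.7.

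The embryonic chain gene Myh3 was bright and nearly level. Its probe set read 1294 on the shLrrfip1a array and 1256 on the control array, above 97.5% and 97.4% of all probe sets. The log2 difference was 0.04, and 84.5% of all probe sets above the filter differed by at least as much in either direction. Median centring of the arrays turned it to -0.02, and scaling to the probe sets for bacterial and phage control RNAs (spike-in scaling) gave 0.22, so its sign is not settled. Whether these control RNAs were added to both samples was not checked. The perinatal chain gene Myh8 was dim, at 33.2 in shLrrfip1a and 35.0 in the control, below the median of both arrays. Its difference was -0.05, and it became 0.07 with spike-in scaling.

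The gene of the fast IIx chain, Myh1, gave the 2 differences past 2-fold. The _x_at probe set read 1908 in shLrrfip1a and 765 in the control, a ratio of 2.50 and a log2 difference of 1.30. The _a_at probe set, which is not flagged for other genes, read 1517 against 678, a ratio of 2.24 and a log2 difference of 1.14. Both thus read higher in shLrrfip1a, and both lay above at least 94.1% of all probe sets on either array.

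Of the 22518 probe sets above the filter, 0.346% had a difference as high as that of the _x_at probe set and 0.440% one as high as that of the _a_at probe set. By its brighter probe set, the _x_at one, Myh1 stood at rank 52 from the top among 11445 genes above the filter. The 2 Myh1 differences lay 0.16 apart. Over all 4852 genes with 2 probe sets above the filter, the median distance between the 2 brightest was 0.12 and the 90th percentile 0.37. In 27 of these genes, Myh1 included, both probe sets were at least 2-fold higher in shLrrfip1a, and in 15 both were at least 2-fold lower. Probe sets of 1 gene read the same RNA, so their likeness says nothing about the spread between cultures.

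The remaining Myh1 probe set, 1452465_at, did not share this. It read 18.1 in shLrrfip1a and 25.0 in the control, at percentiles 16.9 and 26.8 of the arrays, with a log2 difference of -0.26. Of all probe sets below the filter, 16.3% differed by at least as much in either direction. Alone among the Myh1 probe sets, 1452465_at has the plain _at suffix. The annotation ties it to the same database sequence as the _a_at probe set. Where on the transcript each probe set lies was not analysed here. Of 51 genes past 2-fold that also had a dimmer probe set below the filter, 14 (27.5%) had one with the opposite sign, whatever its size.

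The other fast chains were dim. Myh2, the IIa gene, read 36.0 in shLrrfip1a and 25.3 in the control, a ratio of 1.42 and a log2 difference of 0.33, and both values lay below the array medians. Of all probe sets below the filter, 9.14% differed by at least as much. Myh4, the IIb gene, read 58.4 against 39.5 on 1427026_at, a ratio of 1.48 and a difference of 0.42, which 4.04% of the dim probe sets matched or exceeded in size. That value was above the array median in shLrrfip1a and below it in the control. The other Myh4 probe set, 1458368_at, read 41.4 against 44.1 (log2 difference -0.06), so the 2 Myh4 probe sets differed in direction. The size of these dim differences depends on the pseudocount: with 1 and 64, Myh2 differed by 0.49 and 0.16, and Myh4 on 1427026_at by 0.55 and 0.24. The bright Myh1 probe sets hardly moved, with 1.32 and 1.25 for the _x_at and 1.16 and 1.09 for the _a_at probe set.

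**Figure D2:**
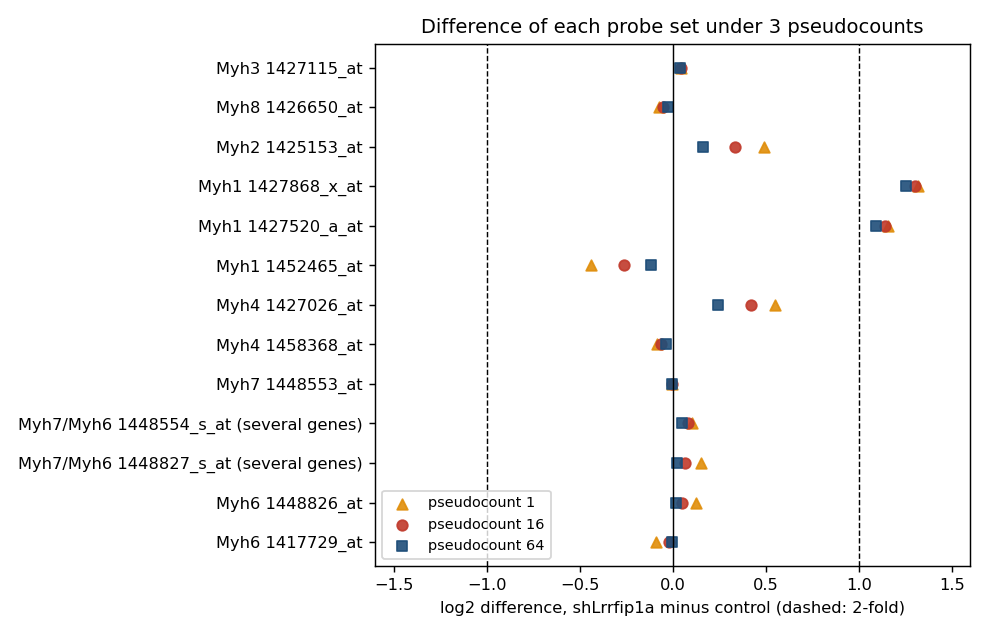
Log2 difference of each myosin heavy chain probe set, shLrrfip1a minus control, with pseudocounts of 1 (triangles), 16 (circles) and 64 (squares); dashed lines mark 2-fold. Both bright Myh1 probe sets stay beyond 2-fold under each pseudocount (1.32 to 1.09), while Myh2, the dim Myh1 probe set and the first Myh4 probe set shrink towards 0 as the pseudocount grows.

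In the mouse RefSeq annotation of GRCm38.p6, Myh3, Myh2, Myh1, Myh4 and Myh8 follow each other in this order on chromosome 11, with no other protein-coding gene between them, and Myh13 comes next. The neighbours of Myh1 on either side, Myh2 and Myh4, lay below the level filter. No array build is named, so the positions below are those of the RefSeq windows.

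The promoter windows of Myh1, which differed, and Myh3, which was bright and level, are shown in full for comparison. Each runs from 250 bases before to 50 bases after a RefSeq transcript start of GRCm38.p6, plus strand, at chr11:67199852-67200151 for Myh1 and chr11:67078050-67078349 for Myh3. Capitals mark matches on either strand to an E-box (CANNTG), which MyoD-family factors bind, the TATA box (TATAAA), the MCAT core (CATTCC), which TEAD factors bind, and the MEF2 element.
Myh1 promoter: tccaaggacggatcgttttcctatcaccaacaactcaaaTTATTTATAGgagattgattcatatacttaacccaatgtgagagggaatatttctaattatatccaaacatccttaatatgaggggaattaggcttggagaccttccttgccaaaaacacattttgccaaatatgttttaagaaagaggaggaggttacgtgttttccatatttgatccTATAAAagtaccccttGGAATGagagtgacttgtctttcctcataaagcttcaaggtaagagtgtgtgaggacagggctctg
Myh3 promoter: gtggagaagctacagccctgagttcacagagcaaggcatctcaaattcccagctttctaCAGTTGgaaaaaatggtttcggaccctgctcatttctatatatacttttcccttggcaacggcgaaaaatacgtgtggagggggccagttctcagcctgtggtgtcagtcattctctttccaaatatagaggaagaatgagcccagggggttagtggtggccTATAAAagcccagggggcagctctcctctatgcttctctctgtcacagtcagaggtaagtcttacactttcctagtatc

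Both windows hold TATAAA on the coding strand shortly before the start, at -32 to -27 in Myh1 and -29 to -24 in Myh3, as does Myh4 at -31 to -26. In Myh2 and Myh6 a coding-strand TATAAA lies just after the RefSeq start, at 11 to 16 and 2 to 7. Of 32851 RefSeq mouse windows, 2.41% hold it within 40 bases before the start. The Myh1 window has a MEF2 element at -211 to -202, which overlaps a TATAAA match on the other strand, and an MCAT core on the other strand at -16 to -11. It has no CANNTG, which 72.3% of all windows hold, whereas Myh3 has 1 at -191 to -186 and no MEF2 or MCAT match. MEF2 elements were also found in the windows of Myh4 and Myh8 and not in those of Myh2, Myh7 and Myh6, against 3.19% of all windows. An MCAT core was found in the windows of Myh1, Myh4 and Myh6 and in 1 of 2 Myh7 windows, against 14.7% of all windows. A match is a run of letters, not a bound site.

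Myh2, Myh1, Myh4 and Myh8 were compared as a chosen set, and the longest stretch that they all share has 14 bases. How often other stretches of this length recur was not tested, and no other RefSeq mouse window holds this one. It is shown in capitals, with the bases around it, for each gene that holds it.
Myh2 (chr11:67170856-67170935): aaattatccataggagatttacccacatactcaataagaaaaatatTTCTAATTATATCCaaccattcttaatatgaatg
Myh1 (chr11:67199896-67199975): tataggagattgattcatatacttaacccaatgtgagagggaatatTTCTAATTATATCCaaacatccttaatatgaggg
Myh4 (chr11:67237608-67237687): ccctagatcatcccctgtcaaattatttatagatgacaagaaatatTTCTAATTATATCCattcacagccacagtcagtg
Myh8 (chr11:67277024-67277103): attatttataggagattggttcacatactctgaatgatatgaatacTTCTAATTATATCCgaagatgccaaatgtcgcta

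The stretch ends 147 bases before the transcript start in Myh1, 145 in Myh4, 112 in Myh2 and 41 in Myh8. Among Myh2, Myh1 and Myh4 it lies within a longer shared run, of 21 bases for Myh2 with Myh1 or Myh4 and 20 for Myh1 and Myh4. The longest runs that Myh8 shares with Myh1 (22 bases) and Myh4 (17 bases) lie elsewhere and do not contain it. Myh3 shares at most 11 bases with any other member. The stretch is thus common to Myh1, which was bright, and to 3 genes that lay below the level filter, where the pseudocount understates changes. Whether it bears on any of these differences was not tested.

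**Figure D3:**
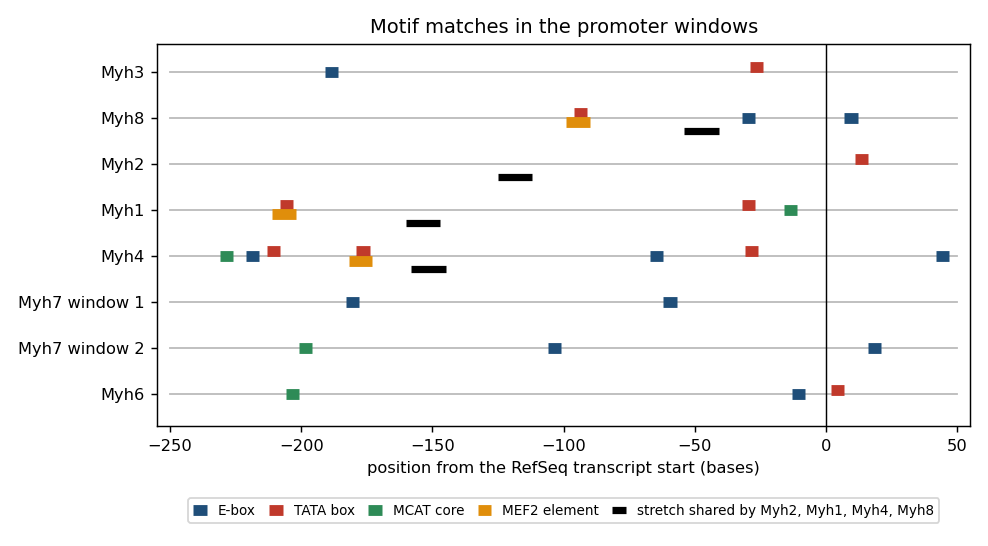
Motif matches in the RefSeq promoter windows of the 7 genes, by position from the transcript start in bases; colours mark the motif and black bars the 14-base stretch. Myh3, Myh1 and Myh4 have a TATA box close before the start, and Myh2 and Myh6 have one just after it. The black bar occurs in Myh8, Myh2, Myh1 and Myh4, with its end 147 bases before the start in Myh1.

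The slow chain gene Myh7 was level. Its own probe set read 126.3 in shLrrfip1a and 126.8 in the control, above 71.4% and 71.6% of all probe sets, with a log2 difference of -0.01. Spike-in scaling turned this to 0.16. The brighter of the 2 probe sets shared with Myh6 read 56.9 against 52.9 (0.08), just above the level filter, and the other read 12.03 against 10.74 (0.07). Which of the 2 genes gave the shared signal is not resolved by these probe sets.

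The alpha chain gene Myh6 was among the dimmest features. Its probe sets read 9.83 against 8.93 and 3.08 against 3.35, so that at most 6.80% of all probe sets were dimmer on the same array. The log2 differences were 0.05 and -0.02. Without detection calls, neither gene nor probe set can be declared absent. In the annotation Myh6 and Myh7 are neighbours on chromosome 14.

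By log2 difference of the brightest probe set, the order was Myh1 (1.30), Myh4 (0.42), Myh2 (0.33), Myh6 (0.05), Myh3 (0.04), Myh7 (-0.01) and Myh8 (-0.05). The last 4 lie between -0.05 and 0.05, and their order is not settled. Each is smaller in size than the median absolute difference over all probe sets, which was 0.16 above the filter and 0.12 below it. On the _x_at probe set Myh1 exceeded Myh3, the other bright gene, by 1.26. This is 1 unequal change within the same pair of arrays and does not depend on a common scaling factor. Myh1 differed by 1.14 on its _a_at probe set and by 0.73 as the mean over its probe sets, which includes the dim one.

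**Figure D4:**
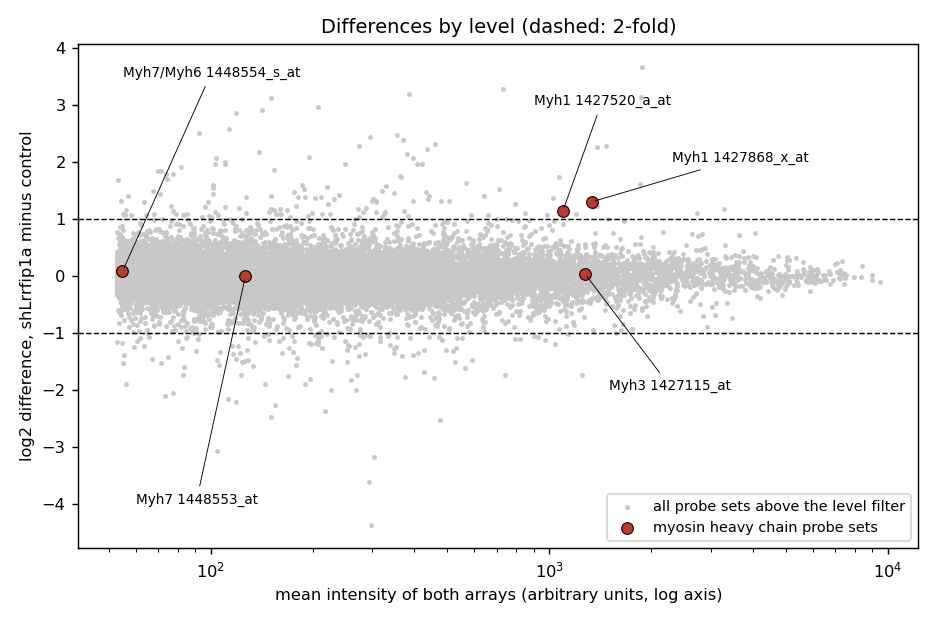
Log2 difference against mean intensity (log axis) for the 22518 probe sets above the level filter in grey and the 5 myosin heavy chain probe sets among them in red; dashed lines mark 2-fold. The Myh1 points lie above the upper dashed line at 1.30 and 1.14, beyond most grey points of similar level, and the Myh3 point lies at 0.04.

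Partners of the heavy chains were read in the same way. Each gene is given by its brightest probe set of 1 symbol. Among 11445 such genes above the filter the median difference was 0.00459 and 1.38% were 2-fold apart. At that share a list of a few genes will mostly hold none, so a count of 0 says little about the list. None of 4 measured sarcomeric light chain genes above the filter reached 2-fold (median -0.06). The embryonic light chain gene Myl4 was the lowest, at 1482 against 2406 (-0.69), the fast chain Mylpf read 3926 against 4220 (-0.10), and the slow chain Myl3 95.2 against 89.6 (0.07). None of 3 other heavy chain genes did so (median 0.03, and 0.20 with spike-in scaling), with the non-muscle chain Myh9 at 3863 against 3047 (0.34; 0.06 to 0.34 over its 5 probe sets), the smooth muscle chain Myh11 at -0.16 and the non-muscle chain Myh10 at 0.03. Myh7b and Myh14 lay below the filter.

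Of 7 thick filament and M-band genes above the filter, 3 were positive and 4 negative, none reached 2-fold and the median was -0.15. Myom2, an M-band protein gene, read 1322 against 1993 (-0.59, and -0.49 and -0.51 on 2 other probe sets), and Mybph, a thick filament protein gene, 1861 against 2424 (-0.38). The titin gene Ttn went the other way, at 1654 against 1331 (0.31, and 0.29 to 0.42 over its 5 probe sets above the filter). Of 7 genes of myosin folding and turnover none did (median 0.06, with 0.00129 under median centring and 0.22 under spike-in scaling). The ubiquitin ligase gene Trim63, whose product marks thick filament proteins for breakdown, read 213 against 144 (0.52), and the myosin chaperone gene Unc45b read 159 against 202 (-0.32).

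Genes of fast and slow fibres were compared because Myh1 is a fast chain. Of 9 fast genes above the filter, 5 were positive and 4 negative, none reached 2-fold and the median was 0.02. Tnni2, the fast inhibitory troponin, read 652 against 1081 (-0.72), and Pvalb, the calcium buffer parvalbumin, 207 against 173 (0.23). Of 9 slow genes, 3 were positive and 6 negative, none reached 2-fold and the median was -0.17. Myoz2, a Z-disc protein gene, read 185 against 289 (-0.60), and Tnnt1, the slow troponin T, 1236 against 1589 (-0.36). With spike-in scaling the light chain, thick filament and slow medians became 0.12, 0.02 and 0.01, and the fast median, 0.18, lay close to the median of all genes, 0.17. The fast median turned to -0.03 with median centring, where that of the other heavy chains also became -0.03 and that of all genes -0.05. It was -0.00068 for the fast genes with quantile and -0.01 with loess scaling.

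Among regulators that are known to act on myosin genes or fibre type, 25 of 32 measured genes lay above the filter, 12 positive and 13 negative. None reached 2-fold and the median was -0.01, which became 0.00413 with quantile and 0.16 with spike-in scaling. Nfix, a factor of the switch from embryonic to fetal muscle genes, was the highest, at 3293 against 1978 (0.73) and at 0.50 to 0.77 over its 5 probe sets. Myod1, which is tied to fast fibres in adult muscle, read 894 against 602 (0.56), and Myog 2005 against 2612 (-0.38). Tbx15, a factor of glycolytic fibres, differed by 0.19 and by 0.41 on its other probe set. Sox6, a repressor of slow genes, read 44.2 against 26.5 and Prox1, which supports the slow program, 40.5 against 33.4, both below the filter.

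**Figure D5:**
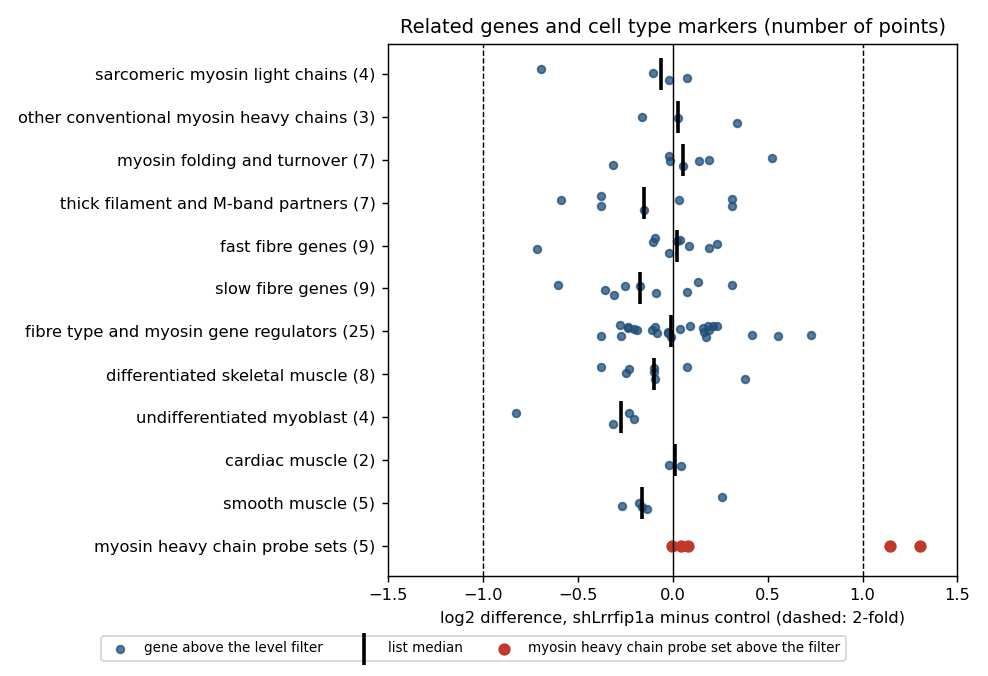
Log2 difference, shLrrfip1a minus control, of each gene above the level filter in the related lists and marker lists, with a bar at each list median and the number of genes in brackets; the lowest row holds the 5 myosin heavy chain probe sets above the filter. No plotted gene of the lists lies beyond the dashed 2-fold lines, which 1.38% of all genes above the filter reached. The Myh1 probe sets lie at 1.30 and 1.14.

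Marker genes bear on which cells gave the RNA. All 8 markers of differentiated skeletal muscle lay above the filter, 2 positive and 6 negative. Their median was -0.10, and 0.08 with spike-in scaling, where that of all genes was 0.17. The summed intensity of the 8 was 13200 in shLrrfip1a and 14394 in the control. Of 6 markers of undifferentiated myoblasts, 4 lay above the filter and all 4 were negative (median -0.27, and -0.10 with spike-in scaling), with sums over the 6 of 2302 and 2870. Pax7, a satellite cell factor, read 22.6 against 70.4 (-1.16, and -0.63 with a pseudocount of 64) and lay below the filter by its mean, and Myf5 read 82.8 against 159 (-0.83). The part of these cells in the Myh1 difference was not tested. Of 8 cardiac markers 2 lay above the filter, Nkx2-5 (299.9 and 303.7) and Nppa (64.7 and 62.4), and 6 did not, among them the heart troponin Tnni3 (24.1 and 17.9) and Gata4 (29.8 and 26.0). The cardiac sums were 534 and 533. Of 6 smooth muscle markers 5 lay above the filter (median -0.16, and 0.00373 with spike-in scaling), with sums of 10333 and 9339. Acta2 made up 7970 and 6655 of these sums, on a probe set with the _s_at suffix of probes shared by transcripts. Its other probe sets read 201.6 against 151.5 and 60.9 against 60.2.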

How the data were processed

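Expression was measured on 2 Affymetrix mouse arrays, 1 per group. The authors deposited intensities, which their range shows to be linear and not log values. How probes were summarised, corrected and scaled is not given in the sources used here, nor are detection calls. Per the labels' protocols, biotinylated cRNA was made from 6 ug of total RNA. The number of arrays limits the precision. Symbols come from the platform annotation (34958 probe sets with 1 symbol, 932 with several, 9211 with none), and 64 Affymetrix controls were left out of medians and counts.

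The authors' scaling was kept and log2(intensity + 16) was used throughout, with numpy 2.4.6, pandas 2.3.3 and statsmodels 0.14.6 under Python 3.11.15. The procedure was run on simulated arrays with changes larger than 2-fold planted in bright probe sets. That run checks the calculation only and does not cover dim probe sets or spike-in scaling. Genes were counted by a size of 2-fold, with no test. Promoter windows are those of RefSeq, GRCm38.p6, in which all 7 genes matched by symbol. Protein sequences were not used here. Named are all members, Lrrfip1, set regulators (Sox6, Tbx15, Prox1, Myod1, Myog) and genes with the largest differences in each related list. These are the 2 largest among its genes above the filter, or 3 in lists with fewer than 5. Ttn was added to show the opposite direction, and marker genes were named after their values were seen. The members and lists were chosen with earlier results of these data known. Alternatives were median, quantile, loess and spike-in scaling, pseudocounts of 1 and 64, other level filters and sizes, probe sets without flags, and means over the probe sets of a gene.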

Additional observations from a re-analysis of the deposited data

How the results depend on the processing

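With 1 array per group no array can be left out and the spread between cultures is unknown. No paired analysis was possible because there is only 1 array in a group. Both Myh1 probe sets stayed past 2-fold under the 4 scalings and both pseudocounts. They were also counted under both other level filters and at 1.5-fold, which could not turn out otherwise for bright probe sets past 2-fold. At 3-fold the count of myosin probe sets was 0, and with probe sets of 1 symbol and no _s_at or _x_at suffix it was 1, since the _x_at probe set drops out. The Myh1 difference ranged up to 1.48 (spike-in scaling) and was 0.73 as the mean over its 3 probe sets, which includes the dim one. The median over myosin probe sets above the filter was 0.08, and 1.14 with the filter at the 75th percentile, where only Myh3 and the 2 Myh1 probe sets remain. The count of all probe sets 2-fold apart, 273, came to 153 with a pseudocount of 64, 170 with the filter at the 75th percentile, 1037 at 1.5-fold and 74 at 3-fold. Spike-in scaling, over 45 bacterial and phage controls, multiplied the shLrrfip1a array by a constant worth 0.18 on the log2 scale and moved the median of all probe sets above the filter from 0.01 to 0.18. Over 7 alternatives Myh2 ranged from 0.16 to 0.49, Myh4 from 0.18 to 0.57 and Myh6 from 0.02 to 0.13, while Myh3 (-0.02 to 0.22), Myh7 (-0.06 to 0.16) and Myh8 (-0.10 to 0.07) took both signs. Dim probe sets limit what can be said of Myh2, Myh4, Myh6 and Myh8.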
